A study of Mus musculus with 8 samples.

Results

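The genes described here are the liver receptors CAR (Nr1i3) and PXR (Nr1i2), the cytochrome P450 genes Cyp2b10, Cyp2c55, Cyp3a11, Cyp3a13 and Cyp3a25, and the genes Por and Alas1. They were chosen by name as the 2 receptors with 7 of their described targets, with earlier results of these data known. They make up 9 of the 55401 gene identifiers in the count table. All 9 passed the filter on low counts. Liver RNA came from NOD scid gamma (NSG) mice, a strain that lacks mature lymphocytes, and every host carried a subcutaneous tumour grown from a human colorectal cancer cell line. The tumour was Colo201, given by the series as high in FGF19, in 4 libraries and HCT116, given as low in FGF19, in the other 4. In each line 2 libraries were labelled male (Colo201 2L and 2R, HCT116 1L and 1R) and 2 female (Colo201 4L and 4R, HCT116 3L and 3R). No age or treatment is given, and there were no tumour-free hosts. Each tumour type is 1 cell line, so an effect of FGF19 and of anything else that differs between the lines cannot be told apart.

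CAR and PXR are nuclear receptors of hepatocytes that sense drugs, bile acids, bilirubin and other small lipophilic molecules. Each binds DNA as a heterodimer with RXR, on paired half-sites such as AGGTCA or its variant AGTTCA, and raises transcription of P450s, conjugating enzymes and transporters. CAR is held in the cytoplasm until it is activated, so its mRNA level and its activity are separate quantities. Cyp2b10 is the classical mouse target of CAR, and Cyp3a11 that of PXR, although each receptor acts on both. Por encodes the reductase that passes electrons from NADPH to all microsomal P450s, and Alas1 the rate-limiting enzyme of haem synthesis in liver, which supplies their prosthetic group.

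The 250 bases before the RefSeq start site were read for all 9 genes (RefSeq, GRCm38.p6, 11 entries for the 9 genes). The windows of the 4 genes that were lower in Colo201 hosts, of Cyp2b10, whose difference had the other sign, and of Cyp3a11 and Cyp3a25 are printed 5′ to 3′ on the strand of the gene, without the part that lies in an annotated exon. They stand at chr1:171213720-171213969, forward strand (Nr1i3), chr16:38294825-38295074, reverse strand (Nr1i2), chr5:137921620-137921869, reverse strand (Cyp3a13), chr5:135688895-135689035, forward strand (Por), chr7:25897408-25897619, forward strand (Cyp2b10), chr5:145879965-145880104, reverse strand (Cyp3a11) and chr5:146009619-146009868, reverse strand (Cyp3a25). Capitals mark the half-site AGGTCA, the variant half-site AGTTCA, the TATA-box letters TATAAA and the E-box letters CACGTG, each searched on both strands. A half-site of the opposite strand appears as its reverse complement.
Nr1i3: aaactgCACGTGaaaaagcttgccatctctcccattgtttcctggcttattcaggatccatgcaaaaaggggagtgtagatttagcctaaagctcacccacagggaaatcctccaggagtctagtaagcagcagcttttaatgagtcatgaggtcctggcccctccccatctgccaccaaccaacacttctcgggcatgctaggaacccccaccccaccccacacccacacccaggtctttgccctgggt
Nr1i2: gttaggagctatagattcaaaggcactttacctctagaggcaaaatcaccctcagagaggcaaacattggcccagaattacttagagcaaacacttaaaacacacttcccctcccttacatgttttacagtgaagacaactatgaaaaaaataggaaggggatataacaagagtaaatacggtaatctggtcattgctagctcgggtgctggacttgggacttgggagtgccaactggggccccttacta
Cyp3a13: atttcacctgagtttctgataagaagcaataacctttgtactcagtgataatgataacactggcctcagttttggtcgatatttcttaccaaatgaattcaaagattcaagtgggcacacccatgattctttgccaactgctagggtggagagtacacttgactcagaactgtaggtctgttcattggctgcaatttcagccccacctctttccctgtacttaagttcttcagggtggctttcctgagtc
Por: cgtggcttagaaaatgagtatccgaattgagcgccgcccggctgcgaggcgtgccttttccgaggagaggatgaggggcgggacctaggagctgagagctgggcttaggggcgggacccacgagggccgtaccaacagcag
Cyp2b10: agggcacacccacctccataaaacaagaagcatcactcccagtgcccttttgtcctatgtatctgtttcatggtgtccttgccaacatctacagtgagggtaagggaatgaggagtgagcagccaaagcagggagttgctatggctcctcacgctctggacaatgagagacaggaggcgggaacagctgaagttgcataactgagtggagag
Cyp3a11: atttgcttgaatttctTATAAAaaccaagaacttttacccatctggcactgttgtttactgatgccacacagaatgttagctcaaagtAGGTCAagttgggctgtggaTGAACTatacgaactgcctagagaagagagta
Cyp3a25: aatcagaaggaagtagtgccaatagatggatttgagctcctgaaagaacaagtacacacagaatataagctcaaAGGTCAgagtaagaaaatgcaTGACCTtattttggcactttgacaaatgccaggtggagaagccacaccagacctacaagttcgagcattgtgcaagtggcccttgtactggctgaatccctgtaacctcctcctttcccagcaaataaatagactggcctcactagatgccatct
Either half-site (AGGTCA or the variant AGTTCA) lay in this window in 2 of the 9 genes, Cyp3a11 and Cyp3a25, against 24.2% of all 32851 promoter windows of the same length. Cyp3a11 held AGGTCA at position -162 and AGTTCA on the opposite strand at -142, counted from the start site, and Cyp3a25 held AGGTCA at -176 and, on the opposite strand, at -155. TATAAA was found in Cyp2c55 and Cyp3a11 (12.4% of all windows) and CACGTG, the E-box letters, in Nr1i3 alone (6.02%). The D-box TTANGTAA, in which N is any base, was in none of the 9 (2.06%). Direct repeats of the half-sites with 4 or 3 bases between them were in none of the 9 and in 0.0244% and 0.0122% of all windows, and everted repeats with 6 bases between them in none and 0.00913%. These are matches of letters within a short window. They describe neither bound sites nor the distal enhancers of these genes.

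Depth was 61347603 to 65457482 estimated counts per library, and 19370 to 20272 genes had at least 1. In all 8 libraries X- and Y-linked expression was opposite to the sex label. Xist, in counts scaled to a common library total (CPM), ranged from 239 to 374 in libraries labelled male, and from 0.275 to 0.833 in the others, so sex is given only as labelled. The hepatocyte list of 10 markers summed to 131500 to 201800 CPM. A title number stands for 1 combination of line and label, and nothing in the labels tells whether its L and R libraries are separate mice. The p-values measure the spread between libraries, which may be technical. Colo201 4R stood apart in epithelial markers, with Krt19 at 25.9 CPM against 0.501 to 2.17 in the other 7 libraries and Epcam at 12.0 against 0.851 to 1.42. Vil1, listed as a marker of intestine, kidney or pancreas, was at 8.01 CPM there against 0.684 to 2.86. The same library had the lowest sum of Kupffer cell and macrophage markers, 211.7 CPM against 353.8 to 574.7. Values without this library are given beside the results it moves. Tissue RNA also cannot tell fewer cells of a type from less RNA per cell.

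Levels of different genes were compared on the deposited FPKM, which are per length of transcript. Cyp3a11 was the most abundant of the 9 at 1493 ± 386.3 FPKM (SD, n = 8), followed by Cyp3a25 at 328.5 ± 70.76 and Por at 142.3 ± 71.37 FPKM, and each of these stood above the next gene in all 8 libraries. Nr1i3 (71.63 ± 42.58 FPKM), Alas1 (47.92 ± 29.02) and Nr1i2 (31.9 ± 9.268) came next. Nr1i3 was above Alas1 in 6 of 8 libraries and Alas1 above Nr1i2 in 6 of 8, so neighbours here overlapped. Cyp2b10 (15.5 ± 11.87) and Cyp3a13 (12.44 ± 4.98) exchanged places, with Cyp2b10 the higher in 4 of 8 libraries, and Cyp2c55 was lowest at 3.007 ± 1.484 FPKM. Cyp3a11 alone made up 9.31 to 20.9% of the summed FPKM of P450 families 1 to 4 in Colo201 hosts and 8.73 to 18.1% in HCT116 hosts. Between libraries Nr1i3 ranged 5.8-fold in CPM and Nr1i2 2.12-fold.

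Both receptors were lower in hosts of Colo201. Nr1i3 lies on chromosome 1 from 171213970 to 171220701 of GRCm38 on the forward strand (ENSMUSG00000005677) and had 231, 349, 119 and 127 CPM in the libraries Colo201 2L, 2R, 4L and 4R. The libraries HCT116 1L, 1R, 3L and 3R had 692, 542, 392 and 291 CPM. Every Colo201 library lay below both HCT116 libraries of the same sex label, while across labels Colo201 2R stood above HCT116 3R. The means were 206.6 ± 107.7 and 479.4 ± 175.3 CPM (SD, n = 4 each), and the log2 fold change, Colo201 minus HCT116 with sex label as a covariate, was -1.28 (SE 0.17, adjusted p = 0.0093, edgeR quasi-likelihood test). Nr1i2 lies on chromosome 16 from 38248323 to 38294824 on the reverse strand (ENSMUSG00000022809). It was measured at 80.4, 90.5, 58.5 and 62.2 CPM in Colo201 2L, 2R, 4L and 4R, whereas HCT116 1L, 1R, 3L and 3R had 124, 123, 86.6 and 85.8 CPM. The libraries ranked as for Nr1i3, apart from an exchange of Colo201 2R and HCT116 3L, and over a narrower range. The log2 fold change of Nr1i2 was -0.52 with an SE of 0.07 (adjusted p = 0.0118, edgeR), from 104.8 ± 21.47 to 72.9 ± 15.15 CPM. In FPKM there were 1.18 to 2.23 units of Nr1i3 per unit of Nr1i2 in Colo201 hosts and 1.96 to 3.23 in HCT116 hosts, ranges that overlapped. Both calls held with each of the 8 libraries left out in turn, with adjusted p from 0.00588 to 0.0358 for Nr1i3 and from 0.0248 to 0.049 for Nr1i2.

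The counts of Nr1i3 have one more limit. Exons of Tomm40l, a gene of the mitochondrial import channel family on the opposite strand, cover 3304 of the 4414 exon bases of Nr1i3, and whether counting used strand is not given in the sources used here. Tomm40l itself was lower in Colo201 hosts, with a log2 fold change of -1.12 in its own counts (SE 0.19, adjusted p = 0.0196, edgeR). It held 11.1 to 24.4 counts per 100 of Nr1i3 in Colo201 hosts and 9.62 to 20.9 in HCT116 hosts. With the Tomm40l counts added to those of Nr1i3 the log2 fold change of Nr1i3 was -1.26 (adjusted p = 0.00954, edgeR), and with them taken away it was -1.31 (adjusted p = 0.00961, edgeR); both fits were chosen after seeing the data.

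Cyp2b10, the P450 most often used as a read-out of CAR, did not go down with its receptor. It lies on chromosome 7 from 25897620 to 25926624 (ENSMUSG00000030483) and was measured at 59.5, 87.3, 31.1 and 12.5 CPM in Colo201 2L, 2R, 4L and 4R. HCT116 1L, 1R, 3L and 3R had 41.3, 35.1, 11.9 and 7.79 CPM. Within each sex label both Colo201 libraries lay above both HCT116 libraries, by a narrow margin for 4R over 3L. The log2 fold change was 1.04 (SE 0.28), which did not pass (adjusted p = 0.0719, edgeR), and the means were 47.6 ± 32.8 and 24.0 ± 16.6 CPM (SD, n = 4 each). It passed by DESeq2 (adjusted p = 0.00194) and in edgeR without Colo201 4R (log2 fold change 1.23, adjusted p = 0.033). In simulated data 19.2% of DESeq2 calls were false, against 3.6% for edgeR. Cyp2b10 did not pass with any other library left out (adjusted p 0.103 to 0.173, edgeR) or without the covariate (0.489, edgeR). Nor did it pass by limma voom (adjusted p = 0.0666) or by limma on log2 FPKM plus 1 (0.128) or plus 0.1 (0.163). Set against the receptor, there were 25.8, 25.0, 26.0 and 9.82 counts of Cyp2b10 per 100 counts of Nr1i3 in Colo201 2L, 2R, 4L and 4R. HCT116 1L, 1R, 3L and 3R had 5.96, 6.48, 3.04 and 2.67. The lines did not overlap in this ratio, which was chosen after its values were seen and is given as a description, with no test. Cyp2c55, a P450 of the Cyp2c cluster on chromosome 19 (39007019 to 39042693, ENSMUSG00000025002), was scarce, at 3.39, 6.89, 7.70 and 13.9 CPM in the Colo201 libraries in that order and 5.21, 5.94, 4.80 and 4.69 CPM in the HCT116 libraries. Its difference of 0.54 on the log2 scale (SE 0.34, adjusted p = 0.407, edgeR) did not pass, and it was 0.22 without Colo201 4R and 0.85 without Colo201 2L. Among libraries labelled female both Colo201 values were above both HCT116 values, while those labelled male overlapped.

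**Figure D1:**
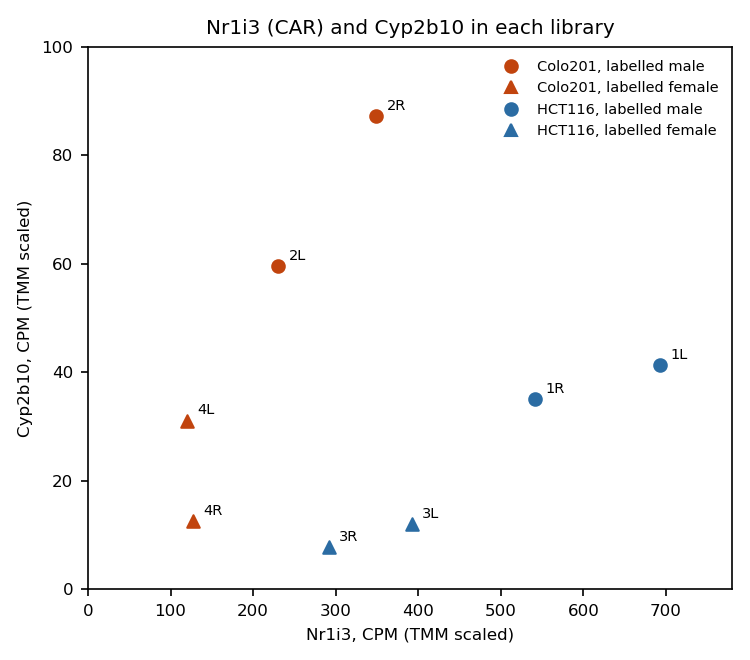
CPM of Nr1i3 (horizontal) and Cyp2b10 (vertical) in each of the 8 libraries, with colour for the tumour line, shape for the sex label and the title number beside each point. Colo201 libraries lie to the upper left of the HCT116 libraries of the same label, and in both lines the libraries labelled male lie above those labelled female.

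Of the Cyp3a genes, which together metabolise a large range of drugs, steroids and bile acids, Cyp3a13 was lower in Colo201 hosts and the abundant Cyp3a11 and Cyp3a25 did not pass. Cyp3a13 (chromosome 5 from 137892932 to 137921619, reverse strand, ENSMUSG00000029727) stood at 25.2, 31.1, 27.3 and 20.6 CPM in Colo201 2L, 2R, 4L and 4R, whereas HCT116 1L, 1R, 3L and 3R had 51.1, 58.5, 54.9 and 51.6 CPM. It was the single gene of the 9 whose libraries did not overlap between the lines whatever their sex label, which held for 12.3% of all tested genes. Its log2 fold change was -1.06 (SE 0.12, adjusted p = 0.00561, edgeR), from 54.0 ± 3.41 to 26.0 ± 4.37 CPM, and it passed with each library left out in turn (adjusted p 0.00856 to 0.0286). Cyp3a11 (chromosome 5 from 145854426 to 145879964, reverse strand, ENSMUSG00000056035) was measured at 7419, 5939, 11557 and 6874 CPM in the Colo201 libraries and at 6933, 6986, 9335 and 11779 CPM in the HCT116 libraries, in the same order. One library of Colo201 and one of HCT116 reached similar maxima, and the lines overlapped in both labels. Its log2 fold change was -0.13 (SE 0.16, adjusted p = 0.699, edgeR), and without Colo201 4R it was 0.02. Cyp3a25 (chromosome 5 from 145977194 to 146009618, reverse strand, ENSMUSG00000029630) stood at 633, 610, 797 and 664 CPM in Colo201 hosts and 773, 583, 863 and 1080 CPM in HCT116 hosts, and its log2 fold change was -0.27 with an SE of 0.13 (adjusted p = 0.262, edgeR). Of its 100-base stretches of transcript 6.79% also occur in Cyp3a59 and of those of Cyp3a11 0.14% occur in Cyp3a44 or Cyp3a16, so a small part of these counts could be split between copies. The transcripts of the other 7 genes shared no such stretch with another gene.

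Por, on which every microsomal P450 depends for electrons, was lower in Colo201 hosts in most fits. It lies on chromosome 5 from 135670033 to 135735326 (ENSMUSG00000005514) and was measured at 541, 671, 360 and 210 CPM in Colo201 2L, 2R, 4L and 4R, whereas HCT116 1L, 1R, 3L and 3R had 1122, 984, 557 and 535 CPM. Within each label both Colo201 libraries were below both HCT116 libraries, as for the receptors. The log2 fold change of Por was -0.87 with an SE of 0.16 (adjusted p = 0.0267, edgeR), from 800 ± 298 to 446 ± 202 CPM. The call was lost without Colo201 2L or without any 1 of the 4 HCT116 libraries, with adjusted p up to 0.0884 (edgeR), while the log2 fold change stayed between -1.03 and -0.72. Per 100 FPKM of P450 families 1 to 4, Por made 0.548 to 1.33 in Colo201 hosts and 1.04 to 1.84 in HCT116 hosts, and the ranges overlapped. Alas1 (chromosome 9 from 106233455 to 106248654, ENSMUSG00000032786) stood at 361, 403, 62.5 and 222 CPM in the Colo201 libraries and 484, 652, 174 and 218 CPM in the HCT116 libraries. Colo201 4R was above HCT116 3R, and Colo201 4L was the lowest of the 8. Its log2 fold change of -0.52 (SE 0.32) did not pass (adjusted p = 0.401, edgeR), and it was -0.98 without Colo201 4R (adjusted p = 0.0695) and -0.27 without Colo201 4L.

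**Figure D2:**
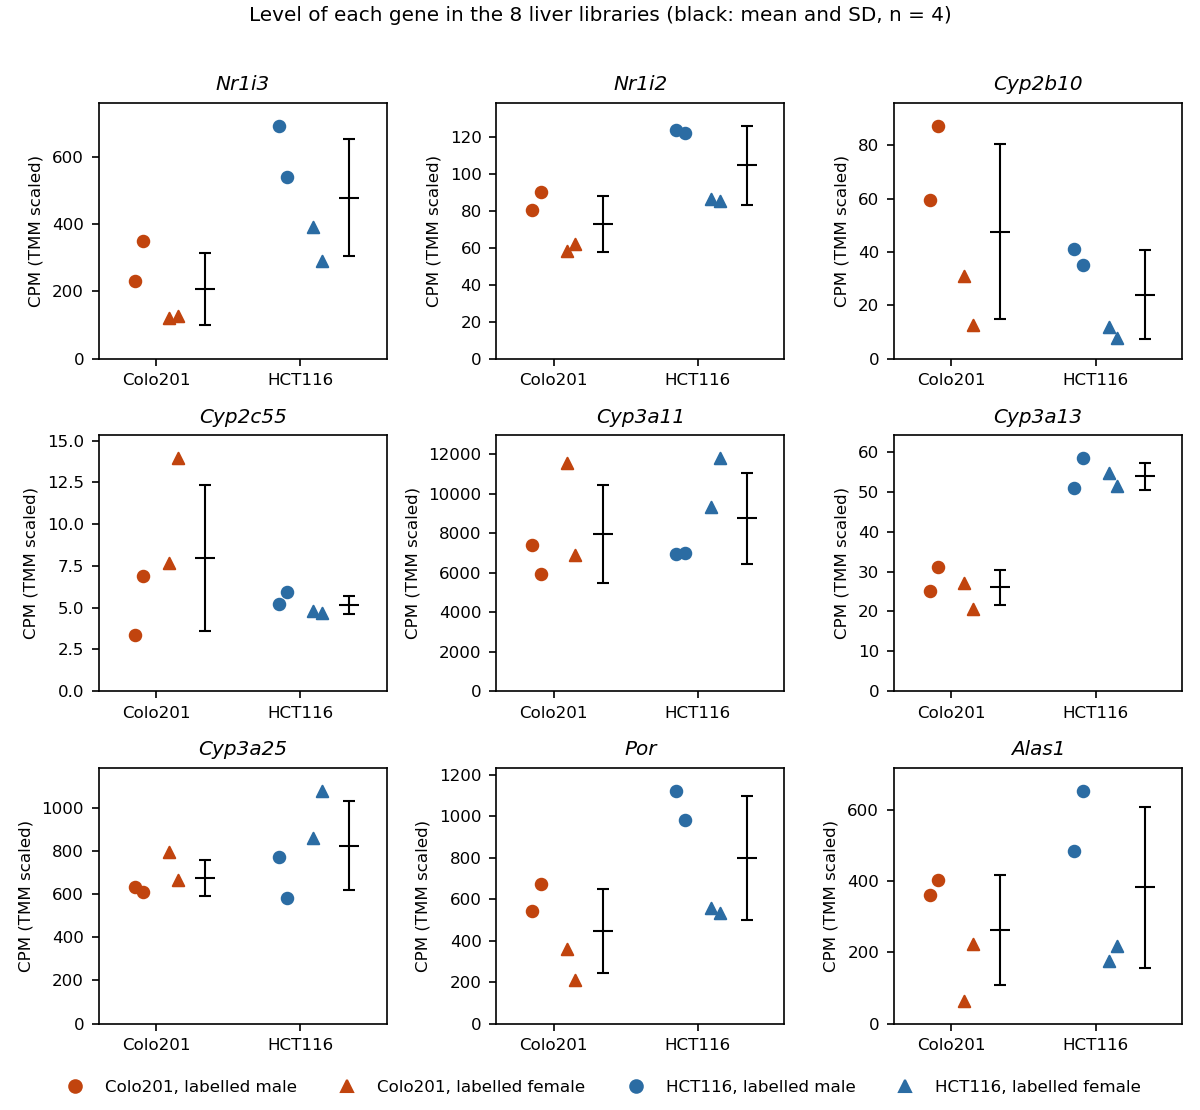
CPM of each of the 9 genes in each library (vertical axes start at 0), with circles for libraries labelled male and triangles for those labelled female; black bars are the mean and SD of the 4 libraries of a line. The lines are apart in Cyp3a13 alone, as they are in 12.3% of all tested genes. Nr1i3, Nr1i2, Por and Cyp2b10 are also apart once the sex labels are read separately, against 21.6% of all tested genes.

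In all, 4 of the 9 genes were lower in Colo201 hosts (Nr1i3, Nr1i2, Cyp3a13 and Por) and 0 were higher at an adjusted p under 0.05 in edgeR, where 2.3% of the 17669 tested genes were lower and 2.48% higher (4.78% in all). The 9 were chosen with earlier results of these data known, so these shares describe them and do not test them as a set. Without Colo201 4R the same 4 were lower and Cyp2b10 was higher, where 2.92% of the 18842 genes tested passed (283 lower, 267 higher). The log2 fold changes of Nr1i3, Nr1i2, Cyp3a13 and Por were then -1.26, -0.54, -0.96 and -0.72. With all 8 libraries, 5 of the 9 had an unadjusted p under 0.05 in edgeR, the 4 and Cyp2b10, against 21.7% of all genes. The median log2 fold change was -0.52 over the 9 and 0.00 over all tested genes. Within both sex labels at once, the libraries of the lines did not overlap for 5 of the 9 (4 below and Cyp2b10 above), against 21.6% of all genes in either direction. When L and R of a title number were summed, which left 1 residual degree of freedom, none of the 9 passed, and Nr1i3, Nr1i2, Cyp3a13 and Por had adjusted p of 0.108, 0.127, 0.102 and 0.104 (edgeR). Cyp2b10 and Alas1 lay close to them in that fit, with adjusted p of 0.102 and 0.131 (edgeR). Without sex label as a covariate Cyp3a13 alone passed, against 0.877% of all genes.

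Taken within each sex label, the differences had the same direction for the 4 genes that passed. Among libraries labelled male the log2 fold changes were -1.09 for Nr1i3, -0.53 for Nr1i2, -0.96 for Cyp3a13 and -0.80 for Por, and among those labelled female -1.47, -0.51, -1.15 and -0.94. With 2 libraries a side, 0 of the 9 genes passed among libraries labelled male, against 0.232% of all genes, with 4 at an unadjusted p under 0.05 in edgeR, against 13.1% of all genes. DESeq2 called 4 of the 9 there and 4.14% of all genes it tested. Cyp3a13 alone passed among those labelled female (adjusted p = 0.0496, edgeR), against 0.492% of all genes, and Nr1i3 had an adjusted p of 0.0528. The call of Cyp3a13 within this label was lost with DESeq2 size factors, upper quartile scaling or total counts (adjusted p 0.0505 to 0.0649, edgeR) and with any 1 library left out (0.0658 to 0.169). Among libraries labelled female 7 of the 9 had an unadjusted p under 0.05 in edgeR, against 14.1% of all genes, and DESeq2 called 4, against 4.23%. The difference between the labels was itself tested, and 0 of the 9 passed, against 0.0283% of all genes. Cyp2c55 had the only unadjusted p under 0.05 of that test among the 9, with a log2 difference of 1.30, labelled female minus labelled male (SE 0.54, unadjusted p = 0.0422, adjusted p = 1, edgeR), where 4.1% of all genes had one. In a simulation of this test 1% of 2-fold and 54% of 4-fold differences were recovered, so differences of 2-fold between the labels would mostly be missed.

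By sex label 5 of the 9 genes differed, and 3 of these 5 also differed by line. X- and Y-linked expression was opposite to these labels in all 8 libraries, so higher under the male label does not mean higher in males. With line as a covariate all 5 were higher in libraries labelled male and 0 lower at an adjusted p under 0.05 in edgeR, where 1.96% of all genes were higher and 2.06% lower. Cyp2b10 differed by 1.85 in log2 units (SE 0.28, adjusted p = 0.0101). The 4 libraries labelled male had 35.1 to 87.3 CPM and those labelled female 7.79 to 31.1 CPM, without overlap, as 9.64% of all genes did in either direction. Alas1 differed by 1.48 (SE 0.33, adjusted p = 0.0457), also with no overlap, at 361 to 652 against 62.5 to 222 CPM. That call was lost in 6 of the 8 fits that left out a library, all but those without Colo201 4L or 4R, with adjusted p up to 0.128. Nr1i3 differed by 1.04 (adjusted p = 0.0125), Nr1i2 by 0.51 (adjusted p = 0.00832) and Por by 1.02 (adjusted p = 0.0118), each with overlap; without HCT116 1L the adjusted p of Nr1i3 was 0.0504. Nr1i3, Nr1i2 and Por, 3 of the 9, were called in both comparisons, as were 0.787% of all genes. Markers of other cells also moved with the sex label. In libraries labelled male 4 of 10 endothelial markers (Pecam1, Stab1, Stab2 and Cdh5), 2 of 11 Kupffer cell and macrophage markers (Cd68 and C1qa), 1 of 10 stellate cell markers (Ecm1), 1 of 9 cholangiocyte markers (Prom1) and 2 of 10 hepatocyte markers (Alb and Ahsg) were higher in edgeR, and 0 of these 5 lists had a lower one. The endothelial list summed to 324 to 376 CPM under the male label against 200 to 268 CPM under the female label, the Kupffer cell and macrophage list to 485 to 575 and 212 to 407, and the hepatocyte list to 161200 to 201800 and 131500 to 157600, each without overlap. The neutrophil list, with 0 of 6 passing, summed to 3.99 to 6.79 and 1.49 to 3.46 CPM. Of the erythroid list Alas2 was lower in libraries labelled male, and of the intestine, kidney and pancreas list Cela1. Their part in the differences by sex label was not tested. The Cyp3a genes did not share this order. Cyp3a11 (log2 difference -0.53, adjusted p = 0.118) and Cyp3a25 (-0.38, adjusted p = 0.153) did not pass, though without Colo201 4R Cyp3a11 did (-0.68, adjusted p = 0.0243), and Cyp3a13 stood at 0.14 (adjusted p = 0.624).

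**Figure D3:**
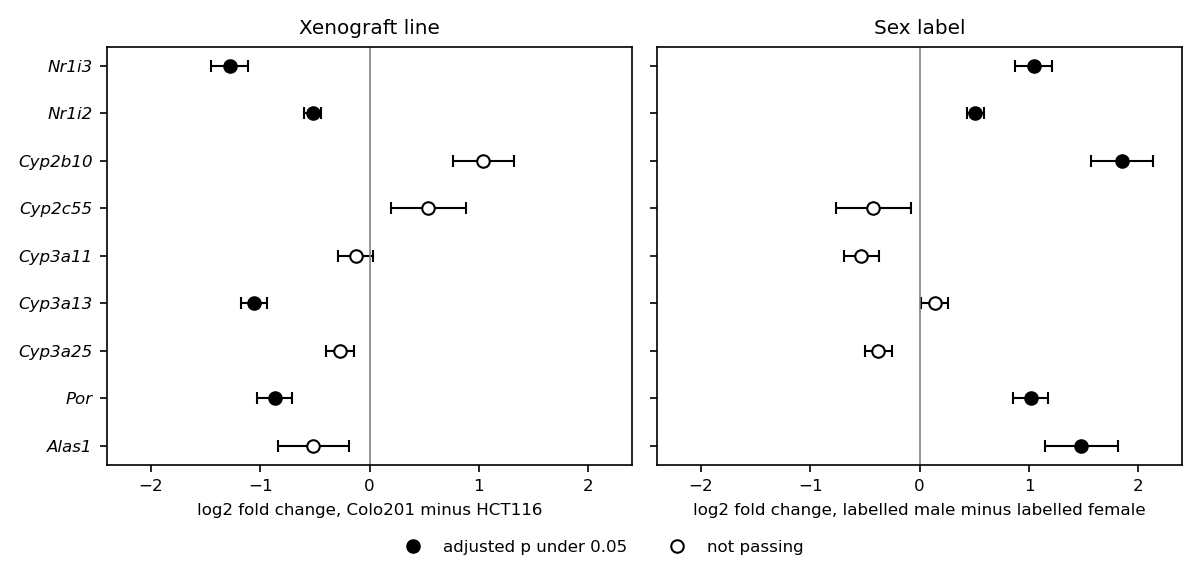
Log2 fold change with its standard error for each gene, Colo201 minus HCT116 (left) and libraries labelled male minus labelled female (right), filled where the adjusted p is under 0.05 in edgeR. Nr1i3, Nr1i2 and Por stand left of 0 for line and right of 0 for label, and Cyp2b10 stands right of 0 in both, passing only for label.

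Over the 8 libraries, the 5 genes whose pattern was nearest to that of Nr1i3, by the root mean square difference of centred log2(CPM + 0.1), were Peg3 (0.13), Sh2d4a (0.21), Abcg3 (0.25), Nrg4 (0.27) and Ces1d (0.27), among 11586 genes of at least 1 CPM on average. Por was eleventh by this measure (0.32), Nr1i2 ranked 113 (0.50) and Cyp3a13 ranked 125 (0.51), whereas Cyp2b10 ranked 10992 (1.27). The measure includes the size of the differences between libraries, so genes of unlike range stand apart even where they rank the libraries alike. Its ranks also depend on the gene they start from. Nearest to Nr1i2 were Rhbdd2 (0.09), Tbc1d1 (0.10), Klf13 (0.10), Arhgap21 (0.11) and Ahcy (0.12), and Nr1i3 ranked 7395 from there (0.50). Nearest to Cyp2b10 were Il1rn (0.38), Hhipl1 (0.38), Abcd2 (0.40), Cdkn2c (0.40) and Rapgef5 (0.44). These distances describe 8 libraries that share line and sex label and carry no test.

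Of 52 other genes in 5 lists of described CAR and PXR targets, 7 passed the comparison of lines (13.5%, against 4.78% of all genes). Of these, 2 were higher (3.85%, against 2.48%) and 5 lower (9.62%, against 2.3%). These lists too were chosen with earlier results of these data known, so the shares are a description. The share over all genes depends on the filter. It was 8.32% of 12731 genes with at least 1 CPM in 4 libraries, and the 52 were not recounted under that filter. Of the 5 other Cyp3a genes tested, 0 passed in edgeR, and the smallest p was that of Cyp3a41a, at -1.02 on the log2 scale (SE 0.59, adjusted p = 0.357), with a range of 0.0834 to 321 CPM between libraries that followed the sex label. Of 11 other Cyp1a, Cyp2a, Cyp2b and Cyp2c genes, 2 fell and 0 rose. These were Cyp2c38 (fell by 1.33, SE 0.23, adjusted p = 0.0219) and Cyp2c54 (fell by 1.50, SE 0.28, adjusted p = 0.0264), of the Cyp2c cluster. The list's median log2 fold change was -0.46. Over all 60 tested P450s of families 1 to 4 apart from the 5 described here, 2 rose and 6 fell, with a median of -0.22. Cyp2e1, the ethanol-metabolising P450, fell by 0.55 (SE 0.07, adjusted p = 0.00665) from 9268 ± 674.6 to 6352 ± 734.6 CPM, and Cyp2j9 fell by 1.08 (adjusted p = 0.0128).

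Beyond the P450s, 19 conjugating enzymes described as targets had 1 rise, Gstt1 (0.47, adjusted p = 0.0264), and 1 fall, Gsta2 (-3.05, SE 0.15, adjusted p = 0.000144), both glutathione transferases, with a median of 0.06. Of 11 other enzymes 1 rose, the carboxylesterase Ces2c (1.51, adjusted p = 0.0109), and 1 fell, the retinal dehydrogenase Aldh1a1 (-0.63, adjusted p = 0.0199). Of 6 transporters 1 fell, Abcc2, the canalicular exporter of bilirubin conjugates, by 0.42 (adjusted p = 0.0374), from 437.6 ± 37.23 to 327.4 ± 19.98 CPM. All of these are log2 fold changes between the lines with edgeR.

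Of the genes that act with or on the receptors, Nr1h4 alone passed. Among 19 heterodimer partners, chaperones and cofactors 0 passed in edgeR, with the smallest p for the coactivator Ncoa2 (log2 fold change -1.13, SE 0.40, adjusted p = 0.146). Rxra, the heterodimer partner, named here after its values were seen, stood at 506.6 ± 16.47 CPM in Colo201 hosts and 519.3 ± 10.69 in HCT116 hosts (log2 fold change -0.04, SE 0.07, adjusted p = 0.799, edgeR). Of 14 regulators of receptor expression 1 fell, Nr1h4, the bile acid receptor FXR, by 0.46 (SE 0.07, adjusted p = 0.0131, edgeR).

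Around Por and Alas1, the electron transfer list of 8 genes had 1 rise, Cyb5r3, the cytochrome b5 reductase (0.48, adjusted p = 0.0198), and 1 fall, Pgrmc1, a haem-binding P450 partner (-0.31, adjusted p = 0.0483). In haem synthesis 1 of 14 genes fell, Cpox, coproporphyrinogen oxidase, by 0.50 (adjusted p = 0.0452). Of 9 genes of haem breakdown and sensing, the haem-binding repressor Nr1d1 (1.32, adjusted p = 0.0124) and the haem transporter Slc48a1 (0.60, adjusted p = 0.0284) rose and the repressor Bach1 fell (-0.39, adjusted p = 0.0493). Of 18 clock and bZIP genes, some of which act on these promoters in a daily rhythm, 1 rose (Nr1d1) and 4 fell, among them Nfil3 (-1.14, adjusted p = 0.0381) and Cry1 (-0.90, adjusted p = 0.0336). The hour of collection is not given in the sources used here, and its part in these results was not tested. Values are log2 fold changes between the lines with edgeR.

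**Figure D4:**
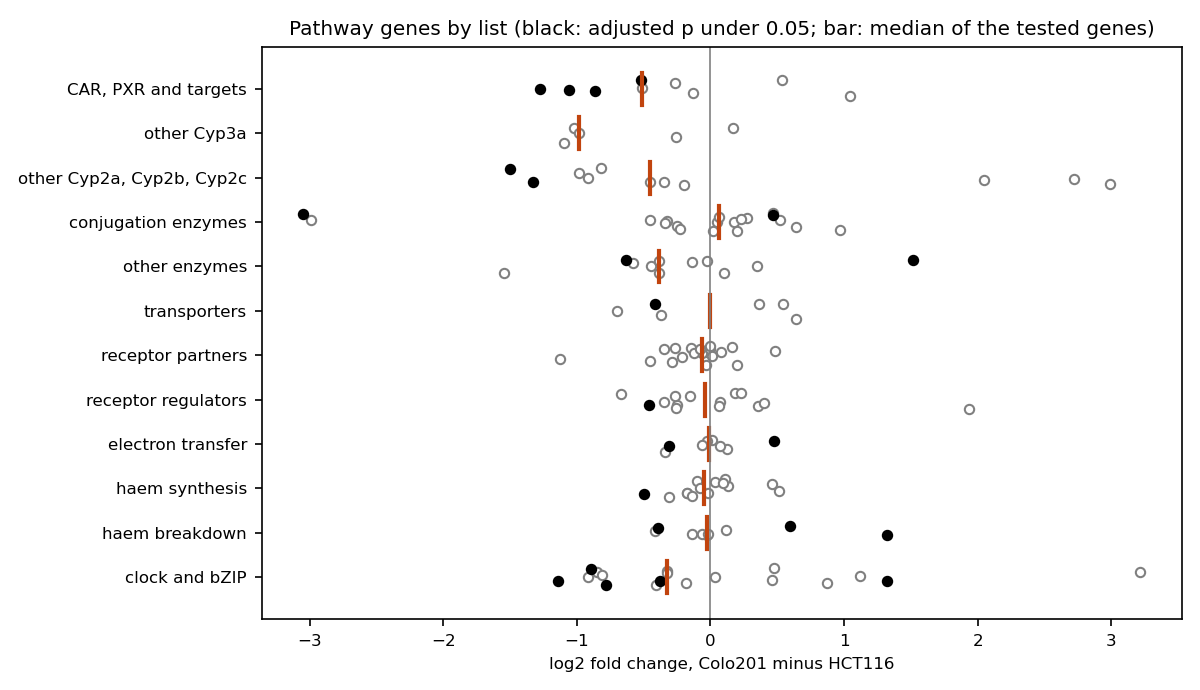
Log2 fold change between lines (Colo201 minus HCT116) of each tested gene, by list, black where the adjusted p is under 0.05 in edgeR, with a bar at the median of each list. The 9 genes described here have a median of -0.52 and receptor partners one of -0.07. The median of -0.99 for other Cyp3a genes rests on 5 genes, with 0 passing. Of these, Cyp3a59 stands at 0.17 (SE 0.16), and the 4 with negative values have SE of 0.59 to 0.83.

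Lists that follow liver zonation and inflammation were counted as well, since CAR targets are most abundant around the central vein and inflammation lowers P450s. Of 12 pericentral genes 3 rose, among them Lect2 (0.60, adjusted p = 0.00844) and Slc13a3 (0.62, adjusted p = 0.0188), and 2 fell, Glul (-1.04, adjusted p = 0.0245) and Slc1a2 (-1.30, adjusted p = 0.0253). Of 18 genes of the acute phase and IL-6 signalling 1 rose, Lcn2 (1.78, adjusted p = 0.0157). The 3 that fell were Orm2 (-1.47, adjusted p = 0.0272) and the cytokine receptors Il1r1 (-1.50, adjusted p = 0.0184) and Il6ra (-0.89, adjusted p = 0.0112). In each list 16.7% of the genes fell, where 2.3% of all tested genes fell. The rises, 3 of 12 pericentral and 1 of 18 acute phase genes, stand against 2.48% of all tested genes. Pericentral genes had 6 positive and 6 negative log2 fold changes (median 0.04), and acute phase genes 4 positive and 14 negative (median -0.26). The part of zonation or inflammation in the differences between the lines was not tested. Values are log2 fold changes between the lines with edgeR.

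Markers of other cell types were compared between the lines. For Kupffer cells and macrophages 0 of 11 tested markers passed in edgeR, for endothelium 0 of 10, for neutrophils 0 of 6 and for lymphocytes 0 of 1, and Cd3e, Cd8a, Ms4a1 and Nkg7 were at 0 in every library. Of 9 cholangiocyte markers 2 rose, Krt23 (4.13, adjusted p = 0.0169) and Prom1 (2.75, adjusted p = 0.0435), and the list summed to 70.6 to 98.0 CPM in Colo201 hosts against 43.1 to 59.2 in HCT116 hosts. Colo201 4R, with the high Krt19 and Epcam, had the highest of these sums. Of 10 hepatocyte markers 3 rose and 0 fell (Trf 0.51, Apoa1 0.47 and Ahsg 0.37), and their summed level overlapped, at 156500 to 201800 CPM in Colo201 hosts and 131500 to 170800 in HCT116 hosts. Of 10 stellate cell markers Reln rose (0.89, adjusted p = 0.0184). Of 7 erythroid markers Tfrc fell (-0.78, adjusted p = 0.032), and of 3 markers of intestine, kidney and pancreas Cela1 rose (1.23, adjusted p = 0.0158). The part of these cell types in the levels of the 9 genes was not tested.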

How the data were processed

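The 8 libraries were made from liver RNA extracted with TRIzol, using a stranded TruSeq mRNA kit, per the labels' protocols. The submitters' processing notes name HISAT2, StringTie and the build GRCm38 (mm10), without versions. Annotation and strand setting were not given in the sources used here. The deposited table holds estimated counts per gene as whole numbers, which were used as they stand; 43.9 to 45.0% of values from 1 to 16 were multiples of 4. The authors' FPKM table follows the same counts and served for levels between genes and in alternatives. Of 55401 identifiers 55141 matched a symbol in GENCODE vM21, which may not be the authors' annotation; the rest held 0.0216 to 0.0343% of counts. L and R of a number were more alike (chi-square per gene 14.36 to 29.19) than other pairs (36.28 to 114.15), and none were duplicates.

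Counts were scaled by TMM, filtered by filterByExpr (17669 genes) and tested by the quasi-likelihood test of edgeR 4.0.16 (R 4.3.3; glmQLFit and glmQLFTest), two-sided, with Benjamini-Hochberg adjustment over all tested genes and a threshold of 0.05. Sex label was a covariate where lines were compared (5 residual degrees of freedom), and line where labels were; values within a label and their difference came from a fit of the 4 combinations. Standard errors are the log2 fold change over the square root of F. Alternatives were other scalings, filters, covariates and thresholds, DESeq2 1.42.0, limma 3.58.1 (voom, or log2 FPKM plus 1 or 0.1), counts divided by 4, summed title numbers and each library left out. Tested on simulated data of 17175 genes for the comparison of lines, edgeR found 63% of the 2-fold and 96% of the 4-fold changes. Of its calls 3.6% were false, against 19.2% for DESeq2. The simulation drew the 8 libraries as independent, with no effect of title number. It therefore cannot give the share of false calls if L and R of a number come from the same mouse. The genes and lists were chosen with earlier results of these data known. Genes named are the 9, up to 4 passing genes of each list by smallest p (or the smallest p where none passed), and the 5 nearest in pattern to Nr1i3, Nr1i2 and Cyp2b10. Rxra and Tomm40l were added after their values were seen. Some listed genes are not reported here.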

Additional observations from a re-analysis of the deposited data

How the results depend on the processing

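The direction of the difference between lines was the same under all alternatives run for 8 of the 9 genes; Cyp3a11, which never passed, turned to 0.0178 without Colo201 4R and ran from -0.28 to 0.0178 with each library left out. With libraries summed by title number the log2 fold changes were -1.28 (Nr1i3), -0.52 (Nr1i2), -1.06 (Cyp3a13) and -0.86 (Por), none passing, with 3 genes called and 0 of the 9 lower. Without the covariate Nr1i3 (-1.21), Nr1i2 (-0.52) and Por (-0.84) did not pass, leaving 1 of the 9 and 155 genes. With limma on log2(FPKM + 0.1), Nr1i2 (-0.56) and Por (-0.93) did not pass, leaving 2 of the 9 and 261 genes. At an adjusted p under 0.01 Nr1i2 (-0.52) and Por (-0.87) were lost, leaving 2 of the 9 and 92 genes. At 0.1 there were 1697 genes and Cyp2b10 (1.04) passed as the 1 higher gene. It also passed by DESeq2 (1.04), which called 1993 genes, 4 of the 9 within label male (589 genes, 4.14%) and 4 within label female (747 genes, 4.23%). Within label female voom called 2 of the 9 (142 genes, 0.804%), no filter 2 (127 genes, 0.494%) and DESeq2 size factors 0 (86 genes). With each library left out in turn, Por ran from -1.03 to -0.72, Cyp2b10 from 0.71 to 1.23, Alas1 from -0.98 to -0.27, Cyp2c55 from 0.22 to 0.85, the genes called from 175 to 550, the higher ones of the 9 from 0 to 1, those called within label female from 0 to 1 and those called by sex label from 3 to 6. Except where a setting leaves fewer samples, the cause was not tested. No paired analysis was possible because the lines share no replicate number. Cyp3a11 has no value without the 20 most abundant genes, being one of them. Cyp2c55 had the fewest counts, 200 to 860 per library, and kept its direction with counts divided by 4 (0.55).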
